A study of Mus musculus with 8 samples.

Results

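The genes described here encode the proteins of the cytosolic ribosome. They were taken by symbol: every gene named Rpl or Rps followed by a number or letter, with Rplp0, Rplp1, Rplp2 and Rpsa, without the Rps6k kinases and without copies named as pseudogenes. The mean over the 8 libraries had to be at least 10 normalised counts. This gave 87 genes of the 37980 rows in the table: 45 of the large (60S) subunit, 31 of the small (40S) subunit, 10 paralogs or retrogenes, and Rps19bp1, which by its name binds a subunit protein and is not one itself. Another 4 genes with such symbols fell below the minimum: Rpl10l at 0, Rpl39l at 2.35, Rpl3l at 1.32 and Rps12l1 at 0.98 normalised counts on average. Rpl24 was not analysed here.

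A ribosome holds 1 copy of nearly every one of these proteins, assembled on ribosomal RNA in the nucleolus, and their messenger RNAs are among the most abundant in a cell. In most of them, transcription starts within a run of pyrimidines, the terminal oligopyrimidine (TOP) tract, through which the mTOR pathway and the RNA-binding protein LARP1 set their translation and stability together. Blood formation is sensitive to their dose: in people, loss of 1 copy of any of several ribosomal protein genes causes Diamond-Blackfan anaemia.

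Polyadenylated RNA was sequenced from multipotent progenitors (MPPs) of C57BL/6 mouse bone marrow, with 1000 cells in each of 4 NA MPP and 4 WT MPP libraries (NA1 to NA4 and WT1 to WT4). The cells carried the surface phenotype Lin-CD48-ckit+Sca1+CD135+CD150-. NA MPPs came from NA LSL/+; Vav-Cre mice, in which Cre, active in blood cells, switches on the NUP98-HOXA10hd fusion gene from the Rosa26 locus, and WT MPPs came from wild-type mice. No age or sex was given in the labels, and nothing says that the aliquots of a group came from separate mice, so p-values measure the spread between these libraries, which may be technical.

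The libraries differed in several ways that the labels do not explain. The estimated depth, from the spacing of low values, fell into 2 classes: 3887855 reads in NA4, 3960938 in WT2 and 3876906 in WT3, and 4779631 to 4916987 in the other 5. The fourth library of each group lay closest to the mean of its group: in 4766 genes whose mean reached 200, the SD of its log2 difference from the mean of the other 3 was 0.184 in NA4 and 0.129 in WT4, against 0.229 to 0.297 in the other 6. Xist was at most 2.80 normalised counts in NA and 869 to 1285 in WT MPPs, and the Y-linked genes Kdm5d, Uty, Ddx3y and Eif2s3y were at 22.4 or more in every NA and at 1.14 or less in every WT library, so genotype and sex cannot be told apart. Transcripts of the gate markers Kit, Ly6a (Sca1) and Flt3 (CD135), together with the progenitor marker Cd34, which the gate did not use, had sums of 7337 to 7655 in NA and 7486 to 7891 in WT MPPs. The 8 erythroid markers summed to 35.4 to 64.9 in NA and 147 to 296 in WT MPPs, and the 8 granulocyte and monocyte markers to 3120 to 3362 and 3563 to 4563, with Elane at 0. Both move with the groups, and their part in the results below was not tested. The sums of B cell, T and NK cell, megakaryocyte, and mast cell and basophil markers overlapped between the groups. Transcripts of Cd48 and Slamf1 (CD150), which the gate excluded, summed to 25.9 to 60.2 in NA and 52.4 to 114 in WT MPPs. Of the NA libraries, only NA2 reached the WT range.

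The sequences that set the limits of the paralog comparisons are those of Rps27, a small subunit protein with a zinc finger, and its relatives. Rps27 lies at chr3:90212522-90213651 on the minus strand and Rps27l at chr9:66946086-66949516 on the plus strand (GRCm38, GENCODE M21, whole genes). In the coding sequences below, without the stop codon, capitals mark the bases of Rps27l that differ from Rps27, which are 60 of 252. The intronless retrogene Rps27rt, at chr9:114982366-114982739 on the minus strand, has 0 mismatches to the coding sequence of Rps27 over the same 252 bases.
Rps27: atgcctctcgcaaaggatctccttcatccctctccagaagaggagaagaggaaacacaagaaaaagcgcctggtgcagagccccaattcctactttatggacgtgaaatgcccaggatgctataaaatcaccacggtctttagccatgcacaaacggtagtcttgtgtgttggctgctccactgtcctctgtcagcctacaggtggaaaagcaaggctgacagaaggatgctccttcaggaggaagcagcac
Rps27l: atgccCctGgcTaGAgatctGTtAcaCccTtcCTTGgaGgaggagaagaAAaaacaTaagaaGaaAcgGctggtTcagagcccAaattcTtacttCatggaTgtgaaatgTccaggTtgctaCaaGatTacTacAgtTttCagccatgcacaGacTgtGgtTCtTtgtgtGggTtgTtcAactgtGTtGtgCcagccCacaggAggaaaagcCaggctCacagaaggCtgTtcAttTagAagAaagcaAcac

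Promoter windows show the pyrimidine runs of the family. In each 30-base window below (RefSeq, GRCm38.p6, on the strand of the gene, first base at the lower coordinate on the plus and at the higher on the minus strand), capitals mark the longest run of C and T within 40 bases of the annotated start. The first 4 genes had lower values in NA MPPs, Rpl4, Rpl14 and Rps27 were not called, and Rps3a1 had higher values.
Rpl34 (chr3:130730330-130730359, minus strand): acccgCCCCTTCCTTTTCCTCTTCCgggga
Rps25 (chr9:44407684-44407713, plus strand): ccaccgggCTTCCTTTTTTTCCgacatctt
Rpl37 (chr15:5116623-5116652, plus strand): caggaagtggcgggggtgCTTTCTCTTCCg
Rps28 (chr17:33824567-33824596, minus strand): tctgtcccgaggaTTCCTgggtaccgcgtg
Rpl4 (chr9:64173361-64173390, plus strand): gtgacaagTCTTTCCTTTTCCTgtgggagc
Rpl14 (chr9:120571501-120571530, plus strand): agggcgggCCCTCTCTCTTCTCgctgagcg
Rps27 (chr3:90213632-90213661, minus strand): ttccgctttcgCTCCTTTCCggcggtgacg
Rps3a1 (chr3:86142629-86142658, minus strand): agggtcacgtagacggcgCTCCCCgcccgg
Of the 76 subunit genes, 56 had a promoter in the RefSeq table. A run of C and T of at least 8 bases lay within 40 bases of the start in 44 of these 56 (78.6%), in 32.6% of all 27025 promoters and in 30.8% of 8732 other tested genes. Among subunit genes called lower in NA MPPs the run was present in 10 of 15 (66.7%), and among those not called lower in 34 of 41 (82.9%). The motif CGGAAG, the core of ETS family binding sites, was on either strand of the 300-base promoter in 67.9% of subunit genes, 17.0% of all promoters and 33.6% of the other tested genes. GGGCGG, the core of a GC box, was in 60.7%, 35.4% and 64.6% of these, AAGATGG, the core of YY1 sites, in 14.3%, 6.48% and 7.75%, and TATAAA in 8.93%, 14.3% and 6.69%. For GGGCGG and TATAAA the subunit genes thus lay on opposite sides of all promoters and of other tested genes. A GGGCGG can run into a CGGAAG through the shared letters CGG, and each motif was counted on its own. A match of letters is a description and not a site, and annotated starts can differ from those used in these cells.

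As a share of the library, transcripts of the 87 genes were lower in NA than in WT MPPs. They took 12.8%, 12.7%, 13.5% and 11.4% of the summed normalised counts in NA1 to NA4 and 14.0%, 14.5%, 14.8% and 14.0% in WT1 to WT4. Every NA library lay below every WT library, with means of 12.6% ± 0.872 and 14.3% ± 0.372 (SD, n = 4). The large subunit held 6.42% ± 0.423 in NA and 7.37% ± 0.187 in WT MPPs, and the small subunit 6.14% ± 0.447 and 6.91% ± 0.193, again without overlap. Mitochondrially encoded transcripts, which also differ between libraries, held 6.91% of NA3, 9.27% to 9.47% of the other NA libraries and 7.22% to 8.12% of the WT libraries. Without them in the total, the 87 genes held 13.8% ± 0.849 of NA and 15.6% ± 0.373 of WT libraries. Within the 5 deep libraries the means were 13.0% in NA and 14.0% in WT MPPs, and within the 3 shallow ones 11.4% (NA4 alone) and 14.7%. In bulk RNA, fewer cells rich in these transcripts and less of them in every cell cannot be told apart.

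**Figure D1:**
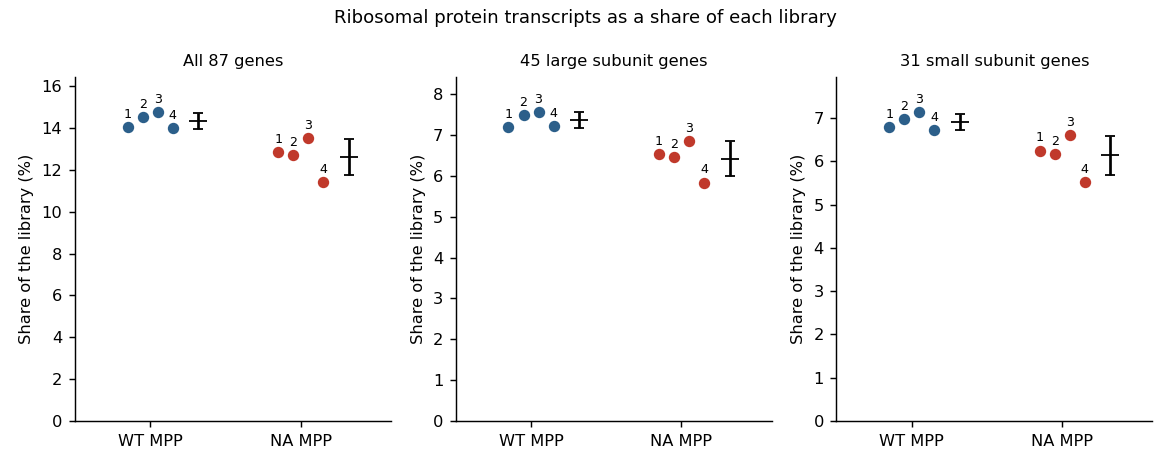
Share of the summed normalised counts (%, y axis) held by all 87 genes, the 45 large subunit genes and the 31 small subunit genes in each library (points, numbered), with the mean and SD of each group of 4 (bars). Every NA library, from 11.4% to 13.5% for all 87 genes, lies below every WT library, from 14.0% to 14.8%, and NA4 is the lowest.

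The ratio of the summed large to the summed small subunit transcripts was 1.05, 1.05, 1.04 and 1.06 in NA1 to NA4 and 1.06, 1.07, 1.06 and 1.08 in WT1 to WT4. The groups did not overlap, though the highest NA value (1.055) and the lowest WT value (1.059) almost met, and the ratio was examined after other values had been seen. It weights genes by their abundance. When every gene counted alike, the difference between the subunits in the median deviation from each gene's mean lay between -0.012 and 0.016 (log2) in all 8 libraries, and the groups overlapped.

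Gene by gene, lower values in NA MPPs prevailed in both subunits, and most single changes were small. All 87 genes passed the filter on low values and were tested with limma among 11451 genes. Of the 87, 25 were called in either direction, against 17.9% of all genes tested: 23 were called lower in NA MPPs at an adjusted p under 0.05 (26.4%, against 7.87% of all genes tested), 2 were called higher (2.30%, against 10.1%), and the other 62 were not called. The fold change was negative for 71 of them. Its median was -0.16 (log2), against -0.01 over all genes tested. In 29 genes every NA library was below every WT library (33.3%, against 10.5% of all genes tested) and in 2 every NA library was above (2.30%, against 11.5%). In the large subunit, 13 of 45 genes were called lower and 0 higher, with a median of -0.16 and a range from -0.42 to 0.16. In the small subunit, 8 of 31 were called lower and 1 higher, with the same median of -0.16 and a range from -0.44 to 0.23.

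The size of this shift was uneven among libraries. NA4 was the lowest NA library for 67 of the 76 subunit genes, and NA3 was the highest for 49. The median deviation of the 76 genes from their own mean was -0.26 (log2) in NA4, -0.05 to 0.02 in the other NA libraries and 0.04 to 0.16 in the WT libraries. Within the deep libraries the median fold change of the 87 genes was -0.05, and within the shallow ones, where NA4 was the only NA library, it was -0.36. The fold change was negative for 58 of the 87 genes in the deep and for 80 in the shallow class. Without NA4, 12 genes were called lower (13.8%), as without NA2 or without WT4, and without WT2 there were 11 (12.6%). The shares of all genes tested called lower were then 3.98%, 5.76%, 4.22% and 6.23%, in that order, against 7.87% with all 8 libraries. Without NA4 and WT4, 3 remained, with Rps25 and Rpl17 among them, while 1.25% of all genes tested were then called lower. Scaling to the total count gave 41 genes called lower (47.1%, against 11.5% of all genes tested) and 0 higher, and no filter on low values gave 7 (8.05%, against 3.98%) and 0. Without the variance trend there were 3 lower and 0 higher, and the share of 3.45% called lower was then below the 5.20% of all genes tested.

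**Figure D2:**
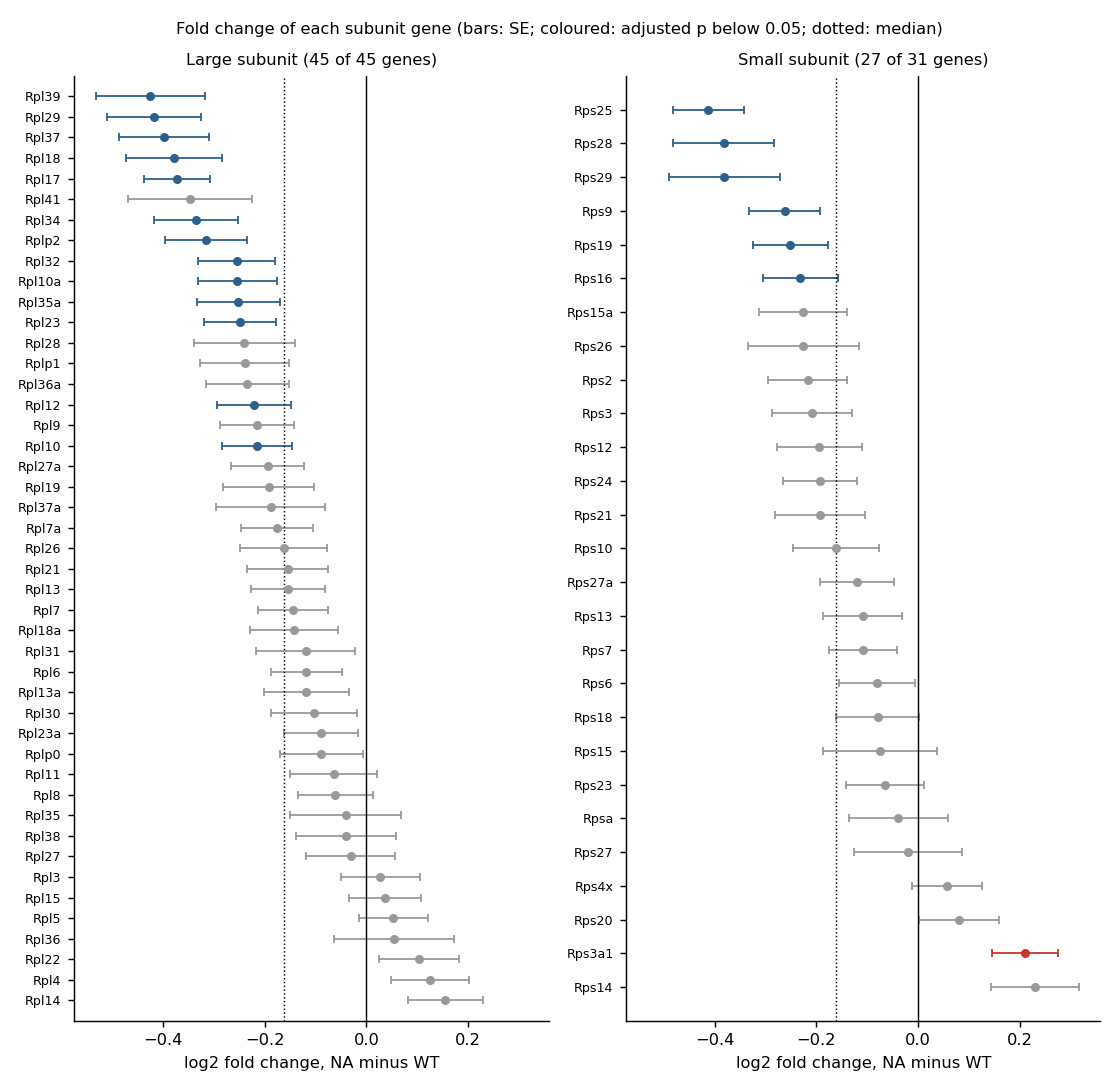
Fold change (log2, NA minus WT, x axis) of the 45 large and 27 of the 31 small subunit genes, ordered by value (points with SE). Blue marks an adjusted p under 0.05 with lower and red with higher values in NA MPPs, grey marks genes not called, and the dotted line is the median over all genes of each subunit, -0.16 in both.

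Rps25 and Rpl17 were called lower in NA MPPs under each of the 22 alternative settings. Most other calls were less firm: Rpl10a held in 10 of the settings, Rpl10, Rpl32, Rpl35a and Rps16 in 11, Rps19 in 12, Rpl23 and Rpl36al in 13, Rps9 in 14, Rps29 in 16, Rpl39 in 18, and Rpl18, Rplp2 and Rps28 in 19. Rps25 (ENSMUSG00000009927, chr9:44407139-44410427, plus strand), a small subunit protein needed for initiation at some viral internal ribosome entry sites, had normalised counts of 4029, 4279, 4018 and 3588 in NA1 to NA4 and 5328, 5341, 5199 and 5274 in WT1 to WT4. The WT libraries lay within a narrow span and all NA libraries below it, with means of 3979 ± 287 (SD) for NA and 5286 ± 64.7 for WT and a fold change of -0.41 ± 0.07 (log2, SE, adjusted p = 0.00142). Rpl17 (ENSMUSG00000062328), a large subunit protein at the peptide exit tunnel, had 5524, 5764, 5845 and 5578 in NA1 to NA4 and 7087, 7751, 7131 and 7447 in WT1 to WT4. Here NA4 was not the lowest, the groups were far apart, and the fold change was -0.37 ± 0.06 (adjusted p = 0.00159).

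**Figure D3:**
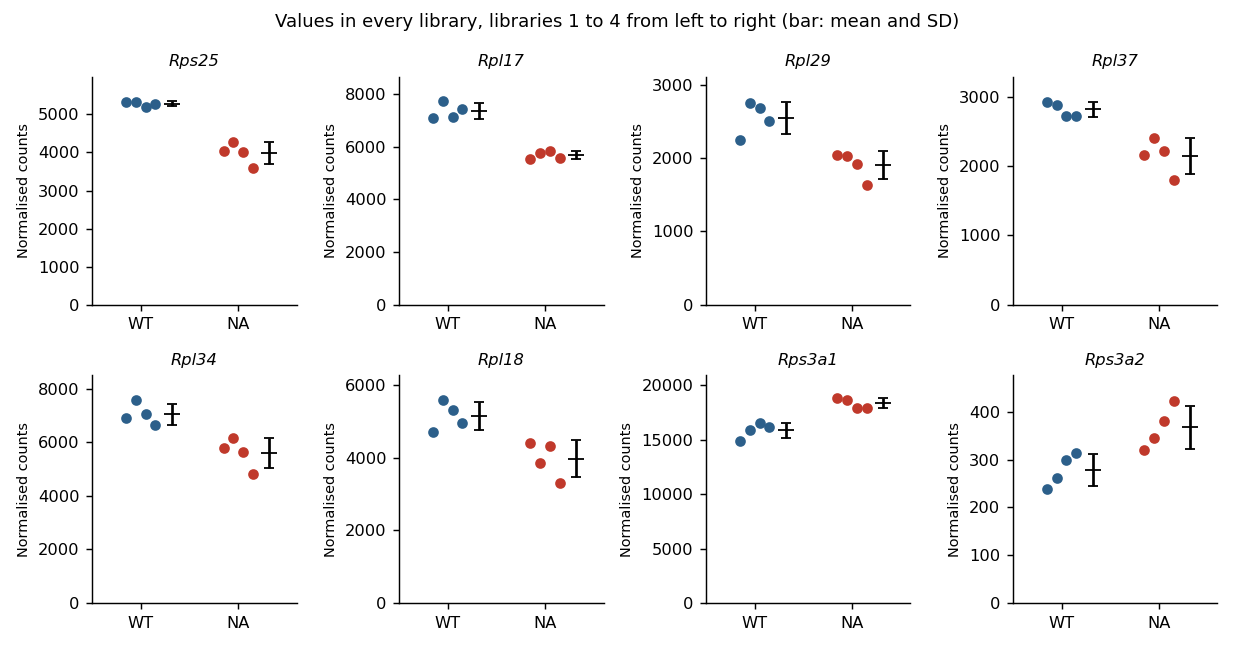
Normalised counts (y axis, from 0) in the 4 WT (blue) and 4 NA (red) libraries, numbers 1 to 4 from left to right, for 6 of the genes called lower with a small adjusted p and the 2 called higher, with the mean and SD beside each group. In all 8 genes the groups do not overlap.

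In the large subunit, falls of a similar size were seen in Rpl39, Rpl37, Rpl29 and Rpl34. Rpl39, one of the shortest ribosomal proteins, lines the exit tunnel and had 1665, 2000, 1655 and 1422 in NA1 to NA4 and 2346, 2457, 1904 and 2322 in WT1 to WT4. NA2 was above WT3, so the groups overlapped, and the fold change was -0.42 ± 0.11 (adjusted p = 0.0145). Rpl37, which binds a zinc ion, had 2161, 2418, 2230 and 1805 in NA1 to NA4 and 2936, 2891, 2735 and 2734 in WT1 to WT4. Its groups did not overlap, with a fold change of -0.40 ± 0.09 (adjusted p = 0.0073). Rpl29, a basic protein of the subunit surface, fell by a similar amount, -0.42 ± 0.09, and Rpl34 changed by -0.33 ± 0.08 (adjusted p = 0.00693 and 0.0125). Rpl37, Rpl29 and Rpl34 were each called in 20 of the 22 alternative settings. Rpl41, the shortest of all with 75 coding bases, was at -0.35 ± 0.12 and was not called (adjusted p = 0.063).

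At the ribosomal P stalk, which recruits elongation factors to the large subunit, 2 of 4 genes were called lower. That is 50% of a very short list, against 26.4% of the 87 genes and 7.87% of all genes tested. The acidic stalk protein Rplp2 had 4871, 4856, 4941 and 3918 in NA1 to NA4 and 5770, 5751, 5891 and 5617 in WT1 to WT4. NA4 stood well below the other 3 NA libraries, the groups did not overlap, and the fold change was -0.32 ± 0.08 (adjusted p = 0.0157). Rpl12, at the base of the stalk, was called lower at -0.22 ± 0.07 (adjusted p = 0.0477). That call held in 9 of the 22 alternative settings and was lost with TMM scaling. Rplp1, the partner of Rplp2, had a fold change of -0.24 ± 0.09, and Rplp0, which anchors both, -0.09 ± 0.08, and neither was called (adjusted p = 0.0746 and 0.482). Of 9 proteins listed at the exit tunnel, Rpl17 and Rpl39 were called lower (22.2%, near the 26.4% of the 87 genes). The other 7 were not called, among them Rpl4 at 0.13 ± 0.08, Rpl22 at 0.10 ± 0.08 and Rpl19 at -0.19 ± 0.09.

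Rpl5 and Rpl11, which join 5S ribosomal RNA in a particle that also binds the p53 regulator Mdm2, were not called. Rpl5 had 16173, 15570, 15557 and 15560 in NA1 to NA4 and 14004, 15264, 16252 and 15140 in WT1 to WT4, and its groups overlapped (fold change 0.05 ± 0.07, adjusted p = 0.62). Rpl11 was at -0.06 ± 0.09 (adjusted p = 0.64) and turned positive without NA4. Rpl38, known for its role in the translation of Hox messenger RNAs in the mouse embryo, had 1444, 1612, 1569 and 1183 in NA1 to NA4 and 1576, 1496, 1435 and 1428 in WT1 to WT4. The groups overlapped at -0.04 ± 0.10 (adjusted p = 0.813), with a positive value without NA4. The remaining large subunit genes called lower were Rpl18 at -0.38 ± 0.09, Rpl32 at -0.26 ± 0.08, Rpl10a at -0.25 ± 0.08, Rpl35a at -0.25 ± 0.08, Rpl23 at -0.25 ± 0.07 and Rpl10 at -0.21 ± 0.07.

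In the small subunit, the falls of Rps28 and Rps29 were close in size to that of Rps25. Rps28, near the exit of the messenger RNA channel, had 2831, 2674, 2951 and 2132 in NA1 to NA4 and 3728, 3431, 3457 and 3114 in WT1 to WT4. Rps29, a zinc-binding protein of the subunit head, had 3790, 3855, 3628 and 2633 in NA1 to NA4 and 4512, 4511, 4809 and 4103 in WT1 to WT4. In both, NA4 was the lowest by a wide margin and the groups did not overlap, with fold changes of -0.38 ± 0.10 and -0.38 ± 0.11 (adjusted p = 0.0165 and 0.0267). Rps9 changed by -0.26 ± 0.07, Rps19 by -0.25 ± 0.07 and Rps16 by -0.23 ± 0.07, all called lower. Of 9 genes listed along the messenger RNA channel or in the head or beak of the subunit, 0 were called lower and 1, Rps3a1, was called higher. These shares of 0% and 11.1% stood against 7.87% and 10.1% of all genes tested, and against 26.4% and 2.30% of the 87 genes. The list leaves out Rps28 and Rps29, placed above at the channel exit and in the head and called lower. It is therefore not a full account of these sites. In that list Rps2 was at -0.22 ± 0.08, Rps3 at -0.21 ± 0.08 and Rps12 at -0.19 ± 0.08, with adjusted p of 0.0663, 0.0802 and 0.123.

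Rps3a1 and its near-identical copy were the genes called higher. Rps3a1 (ENSMUSG00000028081), a small subunit protein that contacts initiation factor eIF3, had 18800, 18697, 17967 and 17918 in NA1 to NA4 and 14855, 15882, 16498 and 16215 in WT1 to WT4. Every NA library was above every WT library, with means of 18346 ± 468 (SD) for NA and 15862 ± 717 for WT and a fold change of 0.21 ± 0.07 (adjusted p = 0.0378). The call held in 11 of the 22 alternative settings, and that of Rps3a2, described next, in 10. Rps3a2, annotated as a processed pseudogene, had 321, 346, 382 and 424 in NA1 to NA4 and 239, 262, 299 and 313 in WT1 to WT4, with a fold change of 0.40 ± 0.13 (adjusted p = 0.0432). It differs from the coding sequence of Rps3a1 at 4 of 792 aligned bases, and 76.7% of its 50-base windows occur in Rps3a1, so reads of the more abundant Rps3a1 could be assigned to it and the calls are not separate evidence. Rps14, the gene tied to the 5q- syndrome in people, had 15393, 15418, 18320 and 13815 in NA1 to NA4 and 12762, 13464, 14489 and 12741 in WT1 to WT4. NA4 lay within the WT range, and the fold change of 0.23 ± 0.09 was not called (adjusted p = 0.0783).

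Of 17 genes mutated in Diamond-Blackfan anaemia in people, 5 were called lower in NA MPPs and 0 higher, with a median of -0.16. These were Rps19, the most often mutated of them, with Rps28, Rps29, Rpl18 and Rpl35a. Rps19 had 7935, 7712, 8506 and 7026 in NA1 to NA4 and 8908, 9489, 9712 and 8952 in WT1 to WT4, and its groups did not overlap (adjusted p = 0.0297). Rpl35a had 4103, 4466, 4826 and 3724 in NA1 to NA4 and 5062, 5113, 5174 and 4944 in WT1 to WT4, also without overlap (adjusted p = 0.0451). The other 12 were not called, among them Rps24 at -0.19 ± 0.07, Rps26 at -0.23 ± 0.11 and Rpl15 at 0.04 ± 0.07. The share of 29.4% called lower in this list was near the 26.4% of all 87 genes.

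Of the 4 genes on the X chromosome, Rpl39 and Rpl10 were called lower and Rpl36a and Rps4x were not. That is 50% of a very short list, against 25.3% of the 83 autosomal genes of the family and 7.87% of all genes tested. Rpl10, which completes the large subunit near the peptidyl transferase centre, had 8035, 8415, 8416 and 7599 in NA1 to NA4 and 8820, 9891, 9663 and 9303 in WT1 to WT4. All NA values were below all WT values (adjusted p = 0.0431). Rps4x, the most abundant of the 87 genes by normalised counts, had 28450, 28600, 27172 and 27473 in NA1 to NA4 and 24769, 27457, 28765 and 26490 in WT1 to WT4. The groups overlapped, with a fold change of 0.06 ± 0.07 (adjusted p = 0.601). The next most abundant were Rpsa at -0.04 ± 0.10, Rpl4 at 0.13 ± 0.08 and Rplp0 at -0.09 ± 0.08, and none of these was called.

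Across the subunit genes, fold change varied with the length of the coding sequence. Among the 27 shortest subunit genes (75 to 405 coding bases), 9 were called lower (33.3%) and the median was -0.23. Among 24 of middle length (408 to 576), 8 were called lower (33.3%) with a median of -0.16. Among the 25 longest (582 to 1257), 4 were called lower (16.0%) and 1 higher with a median of -0.12. The share called lower was thus the same in the shortest and middle groups, and was 7.87% over all genes tested. Across the 76 genes, which share the same libraries and are not independent replicates, fold change against log10 coding length had a Pearson r of 0.40 and a Spearman rho of 0.33. Against GC content of the transcript r was -0.07, and against mean level it was 0.27. The same direction held outside the family: other protein-coding genes with transcripts under 1000 bases had a median of -0.10 with 12.9% called lower, those of 1000 to under 2500 bases a median of -0.01 with 7.51%, and longer ones 0.04 with 6.01%. With the length trend across all genes removed from each library, the median of the 87 genes was -0.08, with 10 called lower (11.5%, against 7.74% of all genes tested) and 4 higher. Library by library, the median deviation of the 38 shorter subunit genes minus that of the 38 longer ones overlapped between the groups. It was -0.050, 0.040, 0.024 and -0.111 (log2) in NA1 to NA4 and 0.102, 0.039, -0.054 and 0.023 in WT1 to WT4.

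**Figure D4:**
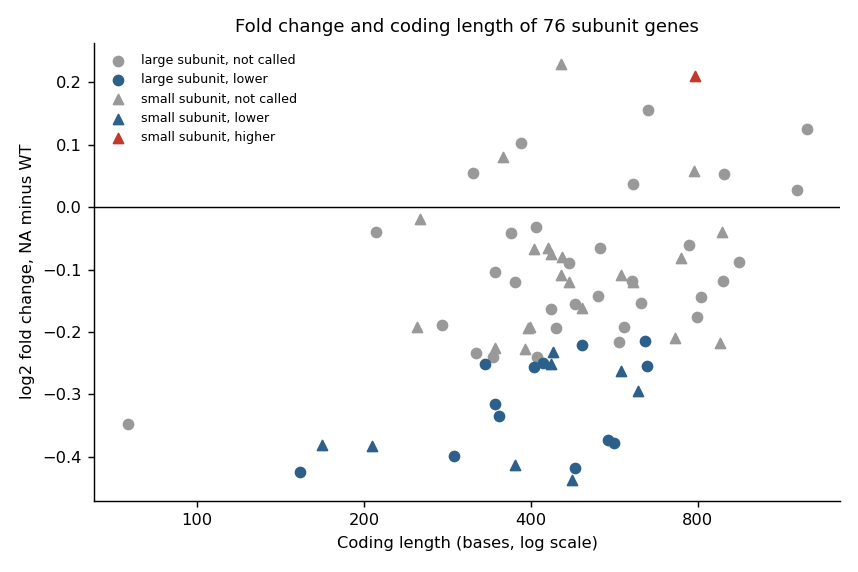
Fold change (log2, NA minus WT, y axis) against coding length (bases, log scale, x axis) for the 76 subunit genes, by subunit (circles large, triangles small) and call (blue lower, red higher, grey not called). Most points are negative, and the median runs from -0.23 among the 27 shortest to -0.12 among the 25 longest.

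The paralogs and retrogenes were less abundant than their partners. Per kb of the main transcript, over the 8 libraries, Rpl22l1 reached 21.0% of Rpl22, Rpl36al 18.1% of Rpl36a, Rps27l 5.86% of Rps27, Rpl7l1 1.45% of Rpl7 and Rps4l 0.215% of Rps4x. Of the 10, Rps27l and Rpl36al were called lower and Rps3a2 higher. These shares of 20% and 10% of a short list stood against 7.87% and 10.1% of all genes tested. Rps27l, which is known as a target of p53, had 289, 305, 295 and 291 in NA1 to NA4 and 458, 365, 322 and 391.5 in WT1 to WT4. All NA values were below all WT values, and the NA values were close together (fold change -0.37 ± 0.12, adjusted p = 0.0477), and the call held in 9 of the 22 alternative settings and was lost with TMM scaling. Its partner Rps27 had 4305, 4192, 4414 and 3081 in NA1 to NA4 and 4375, 4154, 3714 and 3836 in WT1 to WT4. Here NA4 stood apart below all other libraries, the rest overlapped, and Rps27 was not called (-0.02 ± 0.11, adjusted p = 0.922).

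Set against its partner within each library, no paralog separated the groups. The log2 ratio of Rps27l to Rps27 was -3.89, -3.78, -3.90 and -3.40 in NA1 to NA4 and -3.25, -3.51, -3.52 and -3.29 in WT1 to WT4. The means were -3.74 ± 0.23 and -3.39 ± 0.14 (SD, n = 4), and NA4 lay within the WT range. Rpl36al had 448, 595, 564 and 459 in NA1 to NA4 and 659, 667, 621 and 676 in WT1 to WT4, with no overlap (fold change -0.35 ± 0.11, adjusted p = 0.0372). Rpl36a was at -0.23 ± 0.08 and was not called (adjusted p = 0.0609), and the log2 ratio of the pair was -2.41 ± 0.11 in NA and -2.29 ± 0.05 in WT MPPs, with overlap. Rpl22l1, which can stand in for Rpl22 where that protein is lost, had a log2 ratio to it of -2.07 ± 0.12 in NA and -1.98 ± 0.12 in WT MPPs. Rps4l had the most negative fold change of the 87 genes, -0.83 ± 0.29, at only 22.6 to 68.4 normalised counts, and was not called (adjusted p = 0.0596).

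**Figure D5:**
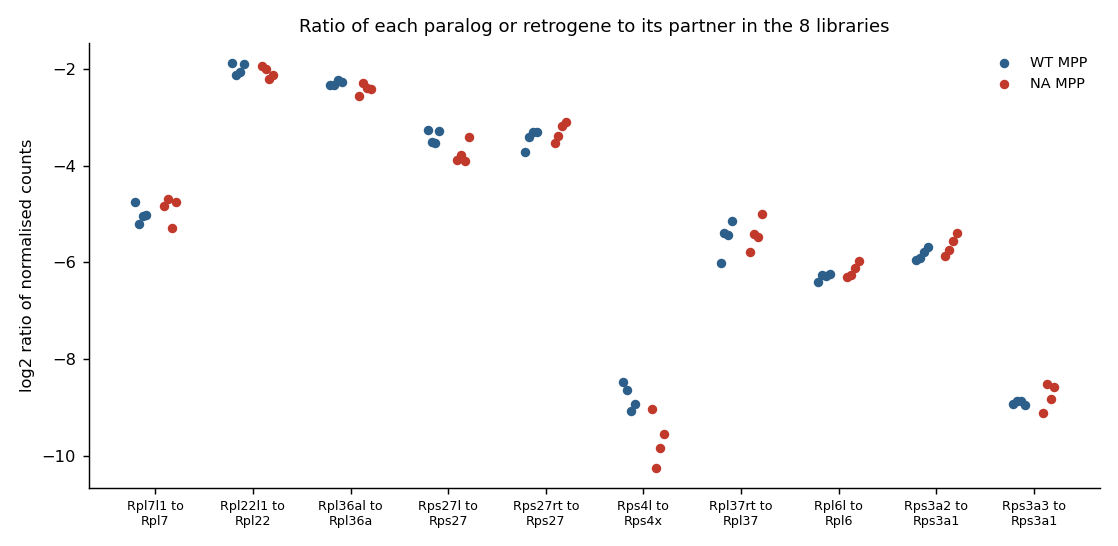
log2 ratio of the normalised counts of each of the 10 paralogs and retrogenes to its partner (y axis) in the 4 WT (blue) and 4 NA (red) libraries. In every pair the groups overlap, and the level of the ratio differs far more between pairs than between groups.

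Reads from copies this alike may be split among them. The coding sequence of Rpl36al matched that of Rpl36a at 87.7% of bases, Rps27l that of Rps27 at 76.2% and Rpl22l1 that of Rpl22 at 74.6%, and none of these 3 shared a 50-base window with its partner. Windows also found in some other gene were still 63.3% of those of Rpl36al, 22.4% of Rps27l and 65.6% of Rpl22l1, so reads may be split here too. The retrogenes Rps27rt, Rpl37rt, Rpl6l and Rps3a3 matched at 100%, 99.7%, 98.7% and 99.0%, so their values are uncertain. None of these 4 was called. Among the 76 subunit genes, the median share of 50-base windows also found in another gene was 56.1%. It was 61.2% in Rps25 and 78.7% in Rpl17, so this limit also applies to those 2 genes. The 37 copies named as pseudogenes with a mean of at least 10 had a median fold change of -0.12, with 0 called in limma. The sum of all copies so named, at any mean, was 0.766% to 0.953% of that of the 87 genes in NA and 0.717% to 0.850% in WT MPPs.

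Among genes around the ribosome, calls were found in both directions, against 7.87% lower and 10.1% higher of all genes tested. The subunit proteins Rack1, at -0.07, and Fau, at -0.09, whose symbols do not follow the naming rule, were not called. Of 78 mitochondrial ribosomal proteins, 11 were called lower (14.1%) and 1 higher (1.28%), with a median of -0.18. Of 62 tested genes of ribosome biogenesis, 5 were called lower and 5 higher (8.06% each, near those shares), with a median of -0.03. Nsa2, a factor of 60S maturation, was higher at 0.55 ± 0.08 (SE), as was Sbds, which helps release eIF6 from the 60S subunit, at 0.43 ± 0.12. Nop10, a small protein of the box H/ACA particles that modify ribosomal RNA, was lower at -0.52 ± 0.10, as was Nop2, an rRNA methyltransferase, at -0.84 ± 0.20, and Nolc1 at -0.40 ± 0.12. Among 8 chaperones of ribosomal proteins, Nap1l1 (0.47) and Bccip (0.50) were called higher and Aamp (-0.48) lower.

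Of 15 other transcripts with a TOP tract, 4 were called higher (26.7%, against 10.1% of all genes tested), 1 lower (6.67%, against 7.87%) and 10 were not called, with a median of -0.02. Eef1a1, the elongation factor that brings aminoacyl-tRNA to the ribosome, was at 99320, 99886, 95057 and 100041 normalised counts in NA1 to NA4 and 71041, 77701, 79775 and 75135 in WT1 to WT4. Its groups did not overlap, with a fold change of 0.38 ± 0.07 (adjusted p = 0.00249). Eif3e (0.45), Hnrnpa1 (0.90) and Eif4b (0.29) were also higher, and Naca, a chaperone of nascent chains, was lower (-0.36). Among 5 regulators of such transcripts, Larp1 had 316, 337, 323 and 302 normalised counts in NA1 to NA4 and 183, 289, 113 and 203 in WT1 to WT4. It was called higher at 0.77 ± 0.21 (adjusted p = 0.0223), as was Larp4 at 0.60 ± 0.16, and the other 3 were not called.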

How the data were processed

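RNA of 8 libraries was analysed. Per the labels, bcl2fastq, RSEM and DESeq2 were used by the authors, with the mouse build mm10. Versions, annotation and strand use were not given in the sources used here. The deposited table is a signal of gene counts that the authors had already divided by 1 size factor per library, here called normalised counts, and 0 of its columns were left unused. Of values from 0.5 to 50, 98.4% to 98.9% per library lay within 0.05 of a whole multiple of 1 step, which gave the estimate of depth. Because RSEM fractions below 1 read remained, count tests were not run, and the log scale was tested instead.

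Symbols, coordinates and sequences came from GENCODE M21 (GRCm38), which named 32916 of 37980 rows, and promoters from RefSeq (GRCm38.p6), which held 63 of the 87 genes. A gene entered the test when 4 or more libraries held 10 or more normalised counts. The test was that of limma (version 3.58.1, R version 4.3.3) with a mean-variance trend, applied to log2 of the normalised count plus 1. NA was compared with WT MPPs without covariates, and p-values were adjusted by Benjamini-Hochberg over all 11451 genes tested, with a threshold of 0.05. Fold changes are on this log2 scale, which understates changes of low genes. The script was tested on simulated data.

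The members, gene lists and tests were chosen with earlier results of these data known. The text names the called genes, the paralog pairs, the X-linked genes, the extremes of level and fold change, and examples from the role lists. A few genes under this rule are not reported here by name, and they remain in the counts, medians and sums. Estimated depths were 3876906 to 4916987 reads per library, and such depths cover counting error only. The alternatives were other scalings, filters and pseudocounts, no variance trend, a depth covariate, a replicate block, removal of GC or length trends, and leaving libraries out. Values within each depth class were added after seeing the data.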

Additional observations from a re-analysis of the deposited data

Results flagged for a closer look

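Of 164 groups of 4 libraries examined (the 2 groups for each gene or share), 7 held a library whose gap to the nearest of the others exceeded Dixon's 95% critical value as a share of the range, and chance alone gives about 8.2. NA4 stood below the rest of its group in 3 genes. Rplp2 was at 3918 normalised counts in NA4 and at 4856 to 4941 in the other NA libraries. Rps12 was at 9296 against 11497 to 11874, and Rps27 at 3081 against 4192 to 4414. In NA1, Rpl5 was at 16173 against 15557 to 15570. In WT2, Rps16 was at 9329 against 8706 to 8804, and in WT4, Rpl31 was at 3946 against 4115 to 4141. Mitochondrially encoded transcripts held 6.91% of NA3 and 9.27% to 9.47% of the other NA libraries.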

How the results depend on the processing

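Against 23 lower and 2 higher, total count scaling, which moved the median of all genes to -0.08, gave 41 lower and 0 higher. Without a filter on low values there were 7 and 0, without the variance trend 3 and 0, without the fourth libraries 3 and 0, and with the length trend removed 10 and 4. In that order, the shares of all genes tested called lower were 11.5%, 3.98%, 5.20%, 1.25% and 7.74%, against 47.1%, 8.05%, 3.45%, 3.45% and 11.5% of the 87 genes, so that without the variance trend the family lay below all genes. Genes called higher numbered 1 with the depth class as a covariate (Rps3a2) and 1 with the GC trend removed, which was Rps14, while Rps3a1 and Rps3a2 both lost their call. Leaving out 1 library gave 11 (without WT2) to 27 (without NA3) genes called lower, with 12 without NA2, NA4 or WT4, and 0 to 2 called higher. The settings that gave 0 higher among these left out NA2, WT1, WT2 or WT4. The median fold change of the 87 genes was -0.21 to -0.10 with 1 library left out. It was -0.0537 within deep and -0.364 within shallow libraries, with -0.0555 and -0.378 for the large and -0.0400 and -0.383 for the small subunit. The causes of these changes were not tested. The replicate numbers did not pair the libraries (correlations of same-numbered deviations 0.087, 0.027, 0.013 and 0.158, with 2 of 4 NA libraries closest to their own number). With a replicate block 25 genes were called lower, 22 of them shared, and 3 higher, which added Rps14. Those called lower were then 28.7% of the 87 genes, against 7.50% of all genes tested.

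No called gene named here changed sign in any of the 22 alternatives. Genes near 0 did. With total count scaling Rpl15 was at -0.0319, Rpl22l1 at -0.0535, Rpl5 at -0.0157, Rpl6l at -0.0499 and Rps4x at -0.0116. With the depth covariate Rpl22l1 was at -0.0253. Without the fourth libraries Rpl11 was at 0.00665, Rpl27 at 0.0308, Rpl35 at 0.053, Rpl38 at 0.0369, Rpl6l at -0.018, Rps23 at 0.00274, Rps27 at 0.0798 and Rpsa at 0.00252. With the GC trend removed Rpl11 was at 0.0252, Rpl22l1 at -0.173, Rpl27 at 0.0132, Rpl35 at 0.0897, Rpl38 at 0.0561, Rpl5 at -0.0272, Rplp0 at 0.0208, Rps15 at 0.0952, Rps20 at -0.0933 and Rpsa at 0.0249. With the length trend removed Rpl11 was at 0.0184, Rpl23a at 0.00407, Rpl27 at 0.059, Rpl35 at 0.0264, Rpl38 at 0.0728, Rps15 at 0.0201, Rps23 at 0.00271 and Rps27 at 0.0892. With 1 library left out Rpl11 ranged from -0.127 to 0.019, Rpl22l1 from -0.0229 to 0.0559, Rpl27 from -0.0795 to 0.038, Rpl35 from -0.144 to 0.0594, Rpl38 from -0.0938 to 0.0548, Rpl6l from -0.0623 to 0.0561, Rpl7l1 from -0.0977 to 0.0634, Rps23 from -0.101 to 0.00172, Rps27 from -0.0716 to 0.101 and Rpsa from -0.0915 to 0.0389. Tests on recovered reads with edgeR and DESeq2 were not run, because fractional assignments below 1 read remained in the deposited values.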
